A study of Homo sapiens with 21 samples.

Results

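OCI-AML5 is an established human acute myeloid leukemia cell line, and UM171 is a small molecule used to expand hematopoietic stem cells ex vivo. The comparison described here sets 3 libraries of OCI-AML5 cells exposed to UM171 for 72 h against 3 libraries exposed for 48 h, all 6 at 500 nM by the labels, while the text of the study gives a different dose for this time course. The members were chosen by label alone, and they are 6 of the 21 samples of the series. No vehicle library enters, and the DMSO libraries without sgEPCR in the label are labelled 72 h. A longer exposure to UM171 and a longer culture therefore cannot be told apart. The labels name no engineered allele for these cells, all come from 1 cell line, and the design text speaks of sorted subsets without naming them.

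UM171 acts on the LSD1-CoREST corepressor through the ubiquitin ligase adaptor KBTBD4, and EPCR, an anticoagulant receptor encoded by PROCR, is a surface marker of the stem cells it expands. Other programs of gene expression appear in the results. Molecular chaperones fold proteins and are induced in the cytosol by HSF1 and in the endoplasmic reticulum by the unfolded protein response. E2F factors switch on the DNA replication machinery as cells enter S phase, and ATF4 induces amino acid synthesis, amino acid import and tRNA charging when amino acids or protein folding run short.

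RNA was measured as the count of reads assigned to each gene and as TPM (a transcript level scaled for transcript length and to the same total in every library). The libraries held 27279602 to 46338202 counts at 48 h and 32440390 to 38560814 counts at 72 h. Pearson's r of log2 CPM (counts scaled to library size) was 0.989 to 0.994 between libraries of the same time and 0.976 to 0.980 between times, and the first principal component, with 64.2% of the variance, separated 48 h from 72 h. Replicate 3 of 48 h stood apart from its group on the second component (14.4%) and had 13.5% mitochondrial counts, against 7.96% to 11.1% in the other 5 libraries. Values without that library are given where they matter. Of the defining myeloid genes, LYZ (1172 to 1814 TPM), ITGB2, PTPRC, SPI1 and CD33 were well expressed in every library, whereas MPO (1.39 to 3.95 TPM) and ANPEP (0.35 to 0.87 TPM) were low. Because these are bulk samples, a change in a marker may reflect fewer cells of a type or less RNA per cell, and the data do not separate them.

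Between 48 h and 72 h of UM171 the cells lost transcripts of protein chaperones, of DNA replication and of ribosome building, and gained transcripts of the ATF4 program, of granule proteins, of adhesion molecules and of MHC class I. Of 15561 genes tested with edgeR's quasi-likelihood test, 4181 (26.9%) were higher at 72 h and 4330 (27.8%) were lower at a Benjamini-Hochberg adjusted p under 0.05. Most of these changes were small, since 5531 of the 8511 calls were under 1.5-fold and the median absolute log2 fold change (72 h over 48 h, where 1 is a doubling and -1 a halving) of called genes was 0.45. Calls past 2-fold with an adjusted p under 0.0001 were mostly rises, with 295 genes higher (1.9%) and 91 lower (0.585%). The split of the first set of calls depends on scaling: 49.1% of them were higher in the main fit, 61.2% with upper quartile scaling, 59.75% with total count scaling and 64.0% with limma on log2(TPM + 1). No gene was called in the opposite direction under any of the alternatives listed at the end of the text. Each 72 h library lay above each 48 h library for 31.2% of the tested genes and below it for 30.8%.

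The 2-fold sets differed in level. The median gene of the 295 that rose had 3.92 TPM at 48 h and 9.83 TPM at 72 h, whereas the median gene of the 91 that fell had 34.7 TPM at 48 h and 17.1 TPM at 72 h, beside 13.04 TPM at 48 h over all tested genes. Over 10 TPM at 48 h were 25.1% of the genes that rose and 72.5% of those that fell, beside 55.1% of all tested genes. Both sets were chosen by their change from 48 h, so part of this difference at 48 h follows from the choice. At 72 h the median over all tested genes was 13.73 TPM, between the medians of the 2 sets. Protein-coding genes were 82.7% of the rises and 91.2% of the falls, and 81.6% of all tested genes.

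**Figure D1:**
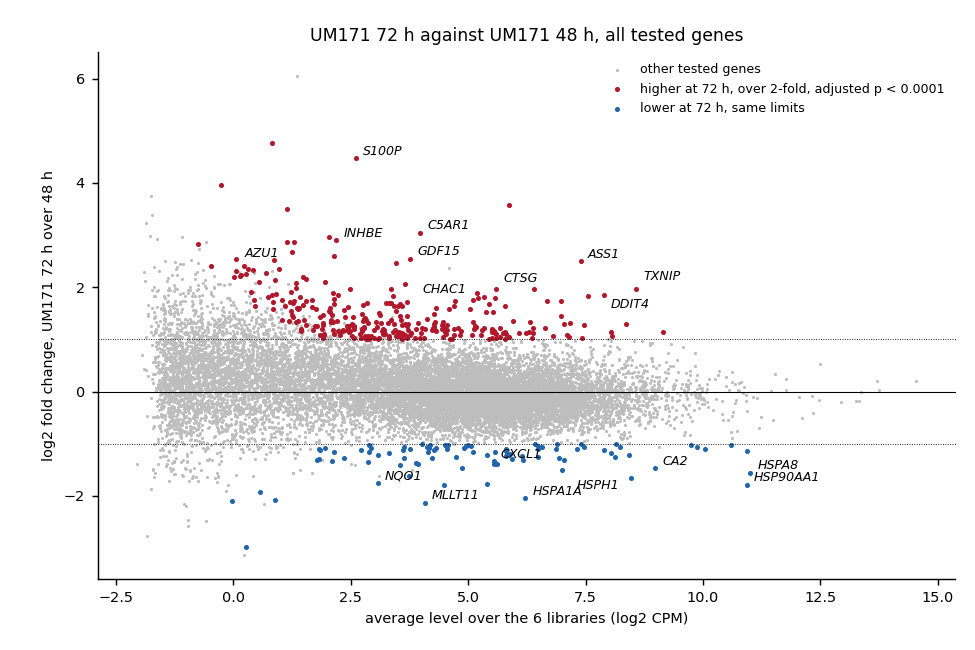
Log2 fold change from 48 h to 72 h of UM171 (y axis) against the average level over the 6 libraries in log2 CPM (x axis), 1 point per tested gene, with dotted lines at 2-fold. The 295 rises past 2-fold (red) include many genes of low level, and the 91 falls (blue) include HSP90AA1 and HSPA8 among the most abundant transcripts.

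Protein chaperones fell as a group. Of 32 tested genes of the unfolded protein response and heat shock list, 23 fell and 4 rose, 13 of the falls were past 2-fold at an adjusted p under 0.0001, and the median log2 fold change was -0.80 (all tested genes: 0.01). Without replicate 3 of 48 h the numbers were 24 and 4, with a median of -0.80. Over all tested genes 27.8% fell, 26.9% rose and 0.585% fell past the 2-fold limits. HSP90AA1, the inducible cytosolic HSP90 (chr14:102080742-102139699, GRCh38), had 1280.2, 1434 and 1229 TPM at 48 h and 392, 403 and 417 TPM at 72 h. The log2 fold change was -1.79 (SE 0.06, adjusted p = 7e-08, edgeR here and below). HSPA8, the constitutive cytosolic HSP70, went from 2618, 2745 and 2931 TPM to 1049, 966 and 951 TPM. Its log2 fold change was -1.55 (SE 0.07, adjusted p = 4.1e-07). HSP90AA1 and HSPA8 are among the largest falls, a set limited to genes without overlap between times.

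The stress-inducible HSP70 gene HSPA1A showed the largest fall of the list. It had 73.0, 74.3 and 71.8 TPM at 48 h and 19.5, 20.1 and 18.95 TPM at 72 h, a tight spread at both times and a log2 fold change of -2.05 (SE 0.06, adjusted p = 3.7e-08). HSPA1A and HSPA1B encode nearly the same protein, so reads may be shared between them, and HSPA1B fell by 1.24 on the log2 scale. HSPH1, an HSP110 that recharges HSP70 with nucleotide, had 257, 257 and 199 TPM at 48 h and 77.8, 81.5 and 84.7 TPM at 72 h (log2 fold change -1.67, SE 0.05, adjusted p = 3.7e-08). HSPE1, a list member that encodes the mitochondrial HSP10 that caps the HSP60 chamber, changed by -1.502 (SE 0.05, adjusted p = 7.9e-08). Outside the list, BAG2, a cochaperone of HSP70, fell by 1.47 (SE 0.08, adjusted p = 8e-07).

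The endoplasmic reticulum arm of the list fell with the cytosolic arm for its chaperones but not for its sensors. CALR (calreticulin, a lectin chaperone) had 1147, 1166 and 1199.7 TPM at 48 h and 571, 549.8 and 559.5 TPM at 72 h, a fall of every library to under the lowest 48 h value (log2 fold change -1.11, SE 0.06, adjusted p = 1.4e-06). HSPA5 (BiP, the central HSP70 of this compartment) changed by -1.03 and HSP90B1 (its HSP90) by -1.07. The 4 members that rose were ERN1 and ATF6, which encode stress sensors, and SEL1L and HERPUD1, which act in degradation of misfolded proteins. Of these, ERN1 had 3.38, 2.25 and 1.90 TPM at 48 h and 4.66, 4.68 and 6.06 TPM at 72 h (log2 fold change 0.89, SE 0.09, adjusted p = 3.4e-05), while HERPUD1, ATF6 and SEL1L rose by 0.20, 0.18 and 0.17. XBP1, the transcription factor downstream of ERN1, changed by 0.08 and did not pass the test, nor did HSF1 at 0.14.

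DNA replication genes fell with few exceptions. Among the 42 tested genes of this list, 38 fell, 1 rose and 3 passed neither way, with a median log2 fold change of -0.72, and in 39 of them each 72 h library lay below each 48 h library. Over all tested genes 27.8% fell, 26.9% rose and 30.8% lay wholly below at 72 h. FEN1, the nuclease that trims Okazaki fragments, had 87.1, 88.6 and 68.8 TPM at 48 h and 34.4, 36.9 and 36.85 TPM at 72 h (log2 fold change -1.26, SE 0.05, adjusted p = 2.8e-07). CDC6, which loads the replicative helicase, had 39.3, 41.8 and 42.9 TPM at 48 h and 21.0, 19.8 and 18.6 TPM at 72 h (log2 fold change -1.21, SE 0.06, adjusted p = 6.3e-07). In both genes the times were apart by more than the spread within either. MCM10, which helps to activate the helicase, fell by 1.23 (SE 0.06, adjusted p = 4.4e-07) and CLSPN, an adaptor of the replication checkpoint, by 1.197 (SE 0.08, adjusted p = 4.1e-06). The member that rose was CDT1, the partner of CDC6 in helicase loading, from 28.6, 24.8 and 17.4 TPM to 33.8, 39.5 and 36.5 TPM (log2 fold change 0.42, SE 0.07, adjusted p = 0.00072). PRIM1, LIG1 and POLD1 did not pass, at -0.03, -0.10 and -0.23.

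Genes of mitosis fell along with those of replication, beside 27.8% lower and 26.9% higher over all tested genes. Of 38 tested genes of G2 and mitosis, 31 fell and 0 rose by edgeR (also 0 by DESeq2 and at an unadjusted p under 0.05), with a median of -0.44. Among those that fell were MYBL2 (-1.01, SE 0.06, adjusted p = 1.3e-06), FOXM1 (-0.78), BUB1B (-0.67) and BUB1 (-0.65). Of the 26 CDK inhibitors and G1 cyclins tested, 14 fell and 9 rose, and 7 fell with limma. Cyclin E, which drives entry into S phase, fell in both of its genes: CCNE1 had 15.15, 16.25 and 14.8 TPM at 48 h and 6.73, 6.36 and 7.36 TPM at 72 h (log2 fold change -1.28, SE 0.09, adjusted p = 3.9e-06), and CCNE2 changed by -1.04 (SE 0.07, adjusted p = 4e-06). E2F2 (-0.75) and the pocket protein gene RBL1 (-0.70) fell as well. The members that rose most were genes of growth arrest, GADD45A (0.74), BTG1 (0.71), the atypical cyclin gene CCNG2 (0.71) and the CDK4/6 inhibitor CDKN2D (0.63).

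Genes of ribosome building fell, and most genes of the ribosomal proteins did not pass the test. Over all tested genes 27.8% fell and 26.9% rose. Of 36 genes of MYC and ribosome biogenesis, 26 fell and 6 rose, with a median of -0.46. UTP20, a component of the small subunit processome, had 9.02, 9.66 and 7.74 TPM at 48 h and 4.44, 4.65 and 4.80 TPM at 72 h (log2 fold change -0.995, SE 0.06, adjusted p = 1.2e-06), and PA2G4, a growth-regulated factor bound to ribosomes, changed by -0.85 (SE 0.09, adjusted p = 2.9e-05). The risen members included MXD3 (0.61), MXI1 (0.50), MNT (0.41) and MXD4 (0.30), which encode antagonists of MYC, whereas MYC itself changed by 0.13 and did not pass. Of 78 cytosolic ribosomal protein genes 7 fell and 5 rose, the median log2 fold change was -0.00, and the members lay between -0.31 and 0.23, but with upper quartile scaling 17 rose and 1 fell and the median was 0.09. Nuclear-encoded respiratory chain subunits fell in 25 of 44 cases and rose in 1, with a median of -0.26, but fell in 9 with limma and in 16 with total count scaling. The falls were led by UQCRQ of complex III (-0.64, SE 0.06, adjusted p = 2.3e-05) and NDUFB3 of complex I (-0.56). The 13 proteins encoded in the mitochondrial genome had a median of -0.16 with 1 fall, MT-ND6 (-0.94), and 0 rises by edgeR (also 0 by DESeq2 and at an unadjusted p under 0.05). Without replicate 3 of 48 h, the library with the highest mitochondrial share, their median was 0.14 with 4 rises.

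**Figure D2:**
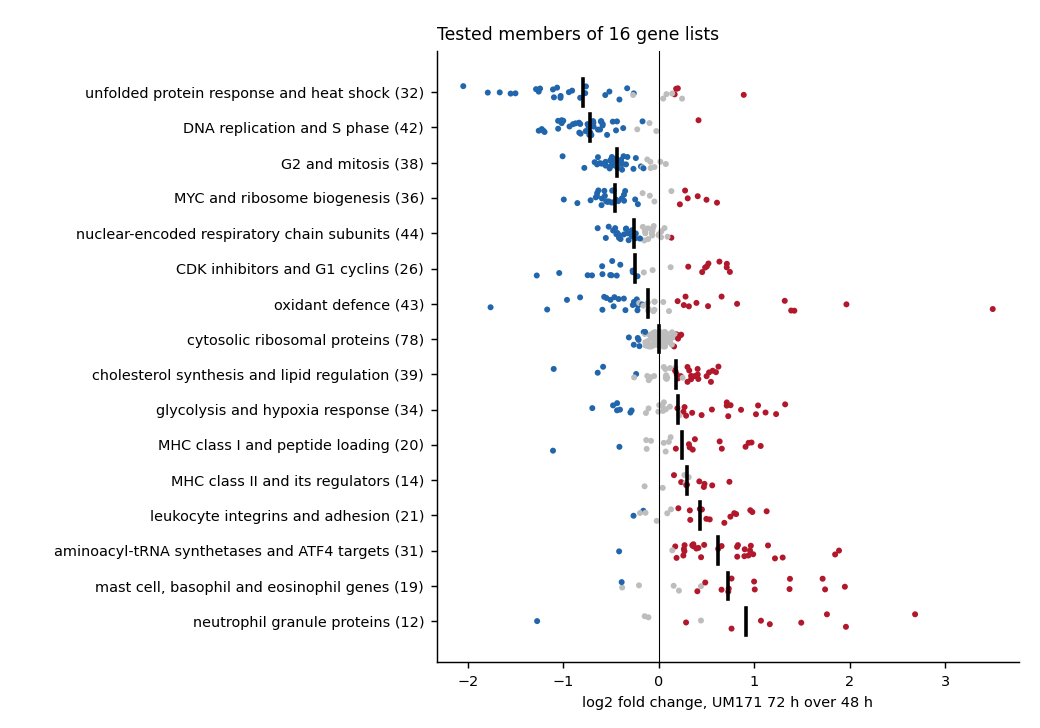
Log2 fold change from 48 h to 72 h of UM171 (x axis) for each tested member (points) of 16 gene lists, with the number tested in parentheses and the median of each list as a black bar; red and blue points passed an adjusted p under 0.05 and gray points did not. Chaperone and replication genes lie to the left with medians of -0.80 and -0.72, and ATF4 targets and granule genes lie to the right with medians of 0.62 and 0.92.

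The ATF4 program rose in nearly every tested member. Of the 34 listed genes, GARS, MARS and SARS were not matched by name and so were not tested. Of 31 tested aminoacyl-tRNA synthetases and ATF4 targets, 29 rose and 1 fell, with a median log2 fold change of 0.62, and in 29 each 72 h library lay above each 48 h library. Without replicate 3 of 48 h the same counts were found and the median was 0.62. Over all tested genes 26.9% rose, 27.8% fell and 31.2% lay wholly above at 72 h. CHAC1, an enzyme that degrades glutathione, had 15.2, 16.9 and 12.96 TPM at 48 h and 55.95, 63.2 and 57.01 TPM at 72 h, well apart (log2 fold change 1.89, SE 0.07, adjusted p = 8.8e-08). DDIT4, an inhibitor of mTORC1, had 85.35, 109.6 and 74.1 TPM at 48 h and 301, 380.05 and 355 TPM at 72 h, a rise of 1.85 (SE 0.10, adjusted p = 8.6e-07). WARS1, the tryptophanyl-tRNA synthetase, had 154, 166 and 124 TPM at 48 h and 358, 394 and 369 TPM at 72 h (log2 fold change 1.30, SE 0.05, adjusted p = 1e-07).

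STC2, a secreted glycoprotein induced by stress of the endoplasmic reticulum, rose by 1.22 (SE 0.05, adjusted p = 3.4e-07), and ASNS, the asparagine synthetase, by 1.14. PHGDH (0.96), the first enzyme of serine synthesis, rose too, as did TRIB3 (0.96) and DDIT3 (0.90), both ATF4 targets that feed back on the program. ATF4 itself rose by 0.35. The member that fell was VARS1, the valyl-tRNA synthetase, from 91.3, 88.4 and 92.1 TPM to 78.7, 70.6 and 68.4 TPM (log2 fold change -0.42, SE 0.06, adjusted p = 0.00045), and TARS1 at 0.14 did not pass. The transcripts of protein folding and those of amino acid supply moved in opposite directions in these libraries.

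The promoters of these lists were searched for short motifs because their members moved together. The windows are those of RefSeq (GRCh38.p14) and span 250 bases before to 50 after each gene's start, for 27305 genes in all. The C/EBP-ATF element TGATGNAA, bound by ATF4 dimers, was found on either strand in 8 of 25 windows of the ATF4 list (32.0%), against 3.67% of all windows. E2F sites (TTTGGCGC, TTTCCCGC or TTTGGCGG) were found in 21 of 38 windows of the replication list (55.3%), against 2.95% of all windows. A heat shock element (GAANNTTC or TTCNNGAA, which overlap where repeats adjoin) was found in 5 of 30 windows of the chaperone list (16.7%), near the 13.7% of all windows. These matches are letters in a window and were not tested for binding. The ATF4 list was put together from tRNA synthetases and ATF4 targets, and E2F factors are known to act on replication genes. An excess of these elements can follow from list membership alone, and its relation to the 48 h to 72 h step was not tested.

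The following 30 bases around 1 match each, read 5′ to 3′ on the strand of the gene with the motif in capitals, are shown for members of each list that hold one. CHAC1 and ASNS rose, and the other 6 genes fell.
CHAC1, C/EBP-ATF element, chr15:40953251-40953280, plus strand: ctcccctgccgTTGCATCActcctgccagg
ASNS, C/EBP-ATF element, chr7:97872458-97872487, minus strand: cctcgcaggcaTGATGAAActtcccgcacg
CDC6, E2F site, chr17:40287840-40287869, plus strand: cgaggccgggcTTTGGCGGgaggtgggaac
MCM6, E2F site, chr2:135876577-135876606, minus strand: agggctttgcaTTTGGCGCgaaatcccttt
PCNA, E2F site, chr20:5126663-5126692, minus strand: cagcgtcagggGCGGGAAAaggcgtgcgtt
HSPA8, heat shock element, chr11:123062348-123062377, minus strand: ggggcgagcttGAAAGTTCCAGAAcgctgc
HSPA1A, heat shock element, chr6:31815426-31815455, plus strand: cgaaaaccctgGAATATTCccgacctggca
DNAJA1, heat shock element, chr9:33025064-33025093, plus strand: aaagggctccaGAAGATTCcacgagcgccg

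In HSPA8 a pair of overlapping elements forms the longer run in capitals, and its window holds 4 matches. The matches lie 209 bases before the RefSeq start in CHAC1, 68 in ASNS, 28 in CDC6 and 106 in HSPA1A. In GENCODE v44 the pieces shown for CHAC1, ASNS and HSPA8 fall inside a UTR annotated for other transcripts of the same gene, that of DNAJA1 inside a UTR of the neighbor APTX on the other strand, and those of CDC6, MCM6, PCNA and HSPA1A in no exon. MCM6, PCNA and DNAJA1, chosen for display after their values were seen, changed by -0.72, -0.74 and -1.26.

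Most of the tested neutrophil granule genes rose, and myeloperoxidase fell. Of 26 neutrophil granule genes only 12 had enough counts to be tested, and of these 8 rose, 1 fell and 3 passed neither way, with a median log2 fold change of 0.92 and 5 rises past 2-fold. Over all tested genes 26.9% rose, 27.8% fell and 1.9% rose past the 2-fold limits. CTSG, the serine protease cathepsin G (chr14:24573518-24576250), had 37.2, 35.7 and 29.9 TPM at 48 h and 134, 155 and 139.8 TPM at 72 h, without overlap (log2 fold change 1.96, SE 0.06, adjusted p = 5.7e-08). The antimicrobial protein genes AZU1 (2.68, SE 0.26, adjusted p = 2.3e-05) and CAMP (1.76, SE 0.20, adjusted p = 7.1e-05) rose from under 2 TPM to 4.04 to 7.77 TPM and 3.99 to 4.94 TPM. CST7, a cystatin that restrains granule proteases, rose by 1.49 (SE 0.11, adjusted p = 4e-06). LYZ, already at 1172 to 1400.5 TPM at 48 h, rose by 0.29 to 1555 to 1814 TPM. The member that fell was MPO, from 3.35, 3.44 and 3.95 TPM to 1.56, 1.54 and 1.39 TPM (log2 fold change -1.27, SE 0.14, adjusted p = 6e-05).

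Genes of mast cells, basophils and eosinophils rose in 13 of 19 tested cases and fell in 1, with a median of 0.73. Over all tested genes 26.9% rose and 27.8% fell. PRG2, the eosinophil major basic protein, had 69.2, 67.5 and 48.3 TPM at 48 h and 202, 246 and 212 TPM at 72 h, with no overlap (log2 fold change 1.74, SE 0.08, adjusted p = 4.8e-07). ALOX5, the 5-lipoxygenase that begins leukotriene synthesis, had 4.13, 4.68 and 2.95 TPM at 48 h and 15.8, 14.2 and 12.9 TPM at 72 h (log2 fold change 1.72, SE 0.10, adjusted p = 1.2e-06), and SIGLEC6, a sialic acid receptor of mast cells, rose by 1.37 (SE 0.08, adjusted p = 1.4e-06). The tryptase genes rose too, TPSD1 by 1.95 and TPSB2 by 1.37, but they share long stretches of sequence and reads may be split between them. GATA2, a transcription factor of this lineage, fell by 0.39 (SE 0.05, adjusted p = 0.00022).

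Most of the tested integrins and adhesion molecules rose. Of 21 tested integrins and adhesion molecules 14 rose and 2 fell, with a median of 0.43, beside 26.9% and 27.8% of all tested genes. ITGAM (CD11b) had 52.75, 53.9 and 39.9 TPM at 48 h and 96.0, 100.3 and 98.5 TPM at 72 h (log2 fold change 0.98, SE 0.05, adjusted p = 1.2e-06), and ITGAX (CD11c) rose by 0.96 (SE 0.06, adjusted p = 2.5e-06). PECAM1 rose by 1.13 (SE 0.05, adjusted p = 4.5e-07). Among growth factor receptors, a list with rises and falls, CSF3R, the receptor of G-CSF, had 53.1, 51.8 and 49.4 TPM at 48 h and 132, 143 and 131 TPM at 72 h (log2 fold change 1.32, SE 0.07, adjusted p = 6.2e-07). IL3RA, a subunit of the interleukin-3 receptor, rose by 1.10 (SE 0.06, adjusted p = 1.1e-06). Of 22 monocyte and macrophage genes 10 rose and 2 fell (median 0.23), with FCGR2B (2.14, from a neighborhood of near-identical receptor genes) and FCN1 (1.11) highest and CD36 (-0.64) and VCAN (-0.27) lower.

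Markers of other cell types were summed in each library. The summed level of 21 lymphocyte markers was 122.1 to 128.3 TPM at 48 h and 141.6 to 143.6 TPM at 72 h. NCAM1, CD79A, NKG7 and CD3D were the most abundant of them, and 15 of the 21 had a mean under 1 TPM. CD5, CD8B, MS4A1 and KLRB1 were at 0 in all 6 libraries. The 18 fibroblast and endothelial markers summed to 43.5 to 53.1 TPM at 48 h and 72.9 to 73.2 TPM at 72 h. PECAM1, also a leukocyte gene, and ENG were the most abundant of these, and LUM, KDR and CLDN5 were at 0. Keratin and other epithelial genes (22) summed to 54.8 to 74.5 TPM and 83.2 to 102.4 TPM. Of these, 7 were at 0, and KRT10 and KRT15 were the most abundant. Erythroid and megakaryocyte genes (38) summed to 828 to 1088 TPM and 714 to 748 TPM, with 14 at 0 and CA2 the most abundant. The part of other cells in the changes above was not tested.

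**Figure D3:**
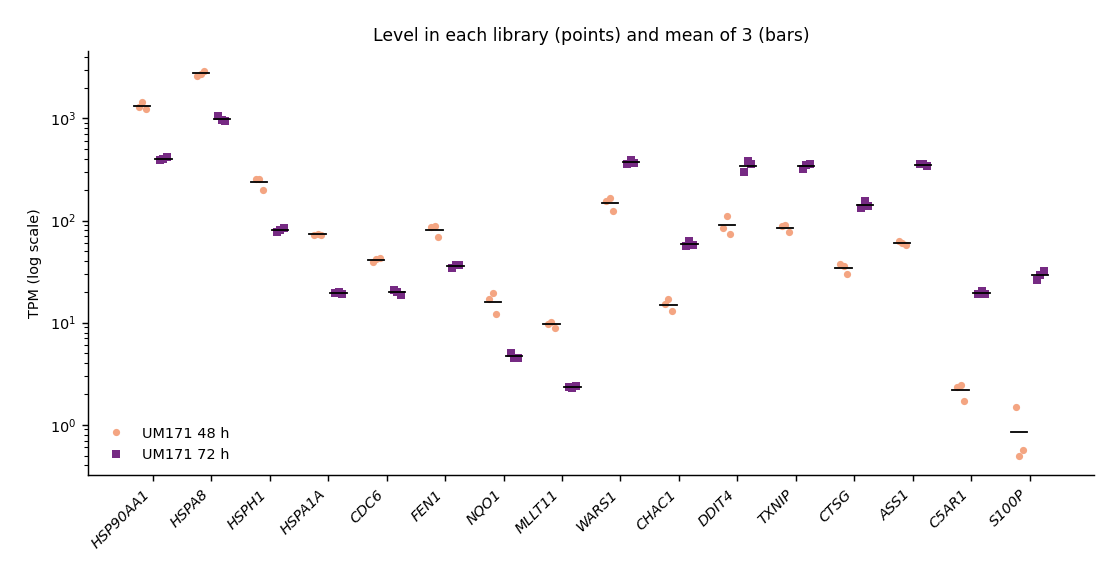
TPM on a log scale (y axis) of 16 genes in each of the 3 libraries of UM171 48 h (orange circles) and of UM171 72 h (purple squares), with bars at the mean of 3. The libraries of the 2 times do not overlap in these 16 genes. For the largest rises and falls, HSP90AA1 and S100P among them, this was a condition of selection. Of all tested genes, 31.2% lay wholly above and 30.8% wholly below at 72 h. HSP90AA1 went from 1229 to 1434 TPM down to 392 to 417 TPM, and S100P from 0.50 to 1.49 TPM up to 26.4 to 31.7 TPM.

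MHC class I transcripts rose. Of 20 tested genes of MHC class I and peptide loading 11 rose and 2 fell, with a median of 0.25. Over all tested genes 26.9% rose and 27.8% fell. HLA-B had 1017, 1108 and 777 TPM at 48 h and 1844, 2084 and 1993 TPM at 72 h (log2 fold change 0.91, SE 0.07, adjusted p = 8e-06), and the nonclassical genes HLA-E and HLA-F rose by 0.97 and 1.07. These genes are alike and polymorphic, so their reads may be split. The 2 members that fell, CALR and PDIA3 (-0.41), are chaperones that also stand in the list above. Of 14 MHC class II genes and regulators 9 rose and 0 fell by edgeR (also 0 by DESeq2 and at an unadjusted p under 0.05), with a median of 0.29. But 10 rose and 1 fell without 48 h replicate 3, and 11 rose and 1 fell with 15 libraries in the fit. Without 72 h replicate 1, 6 rose and 0 fell. The rises included the master regulator CIITA (0.74, SE 0.06, adjusted p = 5.2e-06).

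Inflammatory genes held rises and falls, as the tested genes did as a whole. Of 16 tested chemokines and receptors 6 rose and 6 fell (37.5% each), beside 26.9% and 27.8% of all tested genes. The 6 that fell were all ligands, and CXCL1, CXCL2, CXCL3 and CXCL8 among them attract neutrophils. CXCL1 had 95.85, 102.6 and 90.99 TPM at 48 h and 41.0, 42.2 and 40.3 TPM at 72 h (log2 fold change -1.34, SE 0.06, adjusted p = 4.3e-07), and CXCL3, CXCL2 and CXCL8 changed by -0.82, -0.78 and -0.47. CCL20, which attracts lymphocytes and dendritic cells, fell by 1.13, and CCL2, which attracts monocytes, by 0.78. CXCR4, the receptor of the marrow chemokine CXCL12, had 14.1, 14.4 and 12.98 TPM at 48 h and 50.5, 45.9 and 52.6 TPM at 72 h (log2 fold change 1.75, SE 0.07, adjusted p = 3e-07), and CCL5 rose by 0.75 (SE 0.07, adjusted p = 1.5e-05).

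IL1B and CD86, both of which the study names as proinflammatory examples, moved in opposite directions. IL1B had 65.0, 63.4 and 47.25 TPM at 48 h and 33.7, 36.25 and 37.01 TPM at 72 h, lower in each 72 h library (log2 fold change -0.83, SE 0.07, adjusted p = 7.4e-06). CD86, a costimulatory ligand, rose from 9.92, 9.84 and 10.2 TPM to 15.1, 16.1 and 16.97 TPM (log2 fold change 0.64, SE 0.08, adjusted p = 0.0001). NLRP1, an inflammasome sensor, rose by 1.54 (SE 0.10, adjusted p = 2.3e-06) and SIGIRR, which restrains interleukin-1 receptor signaling, by 1.01. Over the whole interleukin-1 and inflammasome list 7 of 22 rose and 4 fell (median 0.03). Among 27 NF-kB subunits, inhibitors and feedback genes 9 rose, led by TRAF1 (0.64), NFKB2 (0.46), TNIP1 (0.42) and RELB (0.39), and 8 fell, led by NFKBID (-0.68), NFKBIB (-0.65), CHUK (-0.57) and TRAF2 (-0.54), for a median of -0.04. Interferon-stimulated genes (10 rose and 8 fell of 32, median -0.06) and AP-1 and immediate early factors (11 rose and 10 fell of 27, median 0.03) also held rises and falls. Of all tested genes 26.9% rose and 27.8% fell. The shares of the NF-kB list (33.3% and 29.6%) and of interferon-stimulated genes (31.25% and 25.0%) were near these. With limma on log2(TPM + 1), 8 interferon genes rose and 3 fell, 10 AP-1 genes rose and 4 fell, and 7 NF-kB genes rose and 2 fell. Without 48 h replicate 2 or without 72 h replicate 1, 7 AP-1 genes rose. The medians of these 4 lists were of the other sign under at least 1 other scaling, with a GC offset or without 1 library.

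Oxidant defence genes held rises and falls. Of 43 tested oxidant defence genes 19 fell (44.2%) and 13 rose (30.2%), with a median of -0.12, and 10 fell with limma. Of all tested genes 27.8% fell and 26.9% rose. SOD2, one of the 48 listed genes, was not matched by name and so was not tested. NQO1, a quinone reductase, had 16.9, 19.3 and 12.1 TPM at 48 h and 5.08, 4.52 and 4.47 TPM at 72 h, less than the lowest 48 h library (log2 fold change -1.76, SE 0.12, adjusted p = 3.7e-06). PRDX1, a peroxiredoxin, had 609.5, 654 and 617 TPM at 48 h and 277, 336 and 323 TPM at 72 h (log2 fold change -1.17, SE 0.08, adjusted p = 2.9e-06), and GCLM, the modifier subunit of glutathione synthesis, fell by 0.82 (SE 0.09, adjusted p = 3.9e-05). SOD1, the cytosolic superoxide dismutase, had 256, 276 and 266 TPM at 48 h and 143, 146 and 151 TPM at 72 h (log2 fold change -0.96, SE 0.07, adjusted p = 5.1e-06).

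Among the members that rose, TXNIP inhibits thioredoxin and glucose uptake, GGT5 cleaves extracellular glutathione, and the reductase AKR1C1 is, like NQO1, a known NRF2 target. TXNIP had 88.1, 91.1 and 76.45 TPM at 48 h and 320.4, 348 and 355 TPM at 72 h (log2 fold change 1.97, SE 0.05, adjusted p = 3.2e-08). GGT5 had 0.51, 0.38 and 0.31 TPM at 48 h and 4.45, 4.05 and 3.59 TPM at 72 h (log2 fold change 3.50, SE 0.19, adjusted p = 1.2e-06), and AKR1C1, whose reads may be shared with near-identical genes, rose by 1.42 (SE 0.21, adjusted p = 0.00031). PROCR, which encodes EPCR, had 45.3, 41.1 and 36.9 TPM at 48 h and 27.3, 30.6 and 31.25 TPM at 72 h, so that each 72 h library was below each 48 h library (log2 fold change -0.57, SE 0.06, adjusted p = 4.7e-05).

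Single genes with the largest changes included several outside these lists. S100P, a secreted calcium-binding protein (chr4:6693878-6697170), had 1.49, 0.50 and 0.57 TPM at 48 h, from 10 to 32 counts, and 26.4, 29.6 and 31.7 TPM at 72 h, from 351 to 437 counts. It rose by 4.47 on the log2 scale (SE 0.19, adjusted p = 3.1e-07). C5AR1, the receptor of complement fragment C5a (chr19:47290023-47322066), had 2.37, 2.47 and 1.72 TPM at 48 h and 18.9, 20.45 and 19.0 TPM at 72 h (log2 fold change 3.05, SE 0.09, adjusted p = 3.2e-08). ASS1, the argininosuccinate synthase of arginine synthesis (chr9:130444961-130501274), had 63.7, 59.85 and 57.1 TPM at 48 h and 360.4, 356 and 341 TPM at 72 h (log2 fold change 2.496, SE 0.06, adjusted p = 1.6e-08). In these 3 genes the lowest 72 h library was several-fold above the highest 48 h library.

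GDF15, a stress-induced cytokine of the TGF-beta family, rose from 6.24, 5.11 and 4.21 TPM to 26.8, 36.99 and 29.45 TPM (log2 fold change 2.54, SE 0.15, adjusted p = 1.4e-06), and INHBE, of the same family, by 2.90 (SE 0.17, adjusted p = 1.5e-06). FLRT1 (2.97), PAPPA2 (2.47), SYTL1 (2.05) and AOAH (1.97), an enzyme that inactivates lipopolysaccharide, completed the protein-coding genes among the 12 largest rises. The noncoding RN7SL2 and VLDLR-AS1 were in the same set. RN7SL2, a signal recognition particle RNA that is not polyadenylated, varied from 381 to 1388 TPM within 72 h, and VLDLR-AS1 lies antisense to VLDLR, which itself rose by 0.99, with the strand setting of the counting not given in the sources used here.

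The largest falls outside the chaperones began with MLLT11, a small protein first found as a partner of the MLL gene in leukemia (chr1:151060397-151069544), which had 9.64, 10.2 and 8.95 TPM at 48 h and 2.36, 2.29 and 2.39 TPM at 72 h (log2 fold change -2.13, SE 0.07, adjusted p = 8.7e-08). B4GALNT1, a ganglioside synthase, changed by -1.78 (SE 0.05, adjusted p = 3.7e-08) and TUBB2A, a beta tubulin, by -1.63 (SE 0.08, adjusted p = 7.8e-07). CA2, carbonic anhydrase 2, had 767, 744 and 518 TPM at 48 h and 236, 268 and 270.1 TPM at 72 h (log2 fold change -1.47, SE 0.10, adjusted p = 2.9e-06). BCYRN1, a noncoding RNA that RNA polymerase III makes, changed by -1.78 (SE 0.19, adjusted p = 3.7e-05).

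The levels at the earlier times of UM171 set this step in a time course. At 6 h HSP90AA1 had 882 ± 8.43 TPM (mean ± SD, n = 3, as below), at 24 h it had 1312 ± 65.7, and at 48 h 1314 ± 107, before 404 ± 12.6 at 72 h. FEN1 went from 77.5 ± 4.95 TPM at 6 h to 113.9 ± 1.53, 81.5 ± 11 and 36.1 ± 1.42 at the later times, and CCNE1 from 7.31 ± 0.435 TPM to 18.8 ± 0.289, 15.4 ± 0.769 and 6.82 ± 0.506. S100P stood at 8.92 ± 2.23 TPM at 6 h, dipped to 1.65 ± 0.641 and 0.853 ± 0.553, and reached 29.2 ± 2.67 at 72 h. By contrast DDIT4 was higher at each later time, with 9.0 ± 1.87, 35.6 ± 7.20, 89.7 ± 18.1 and 345 ± 40.5 TPM.

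**Figure D4:**
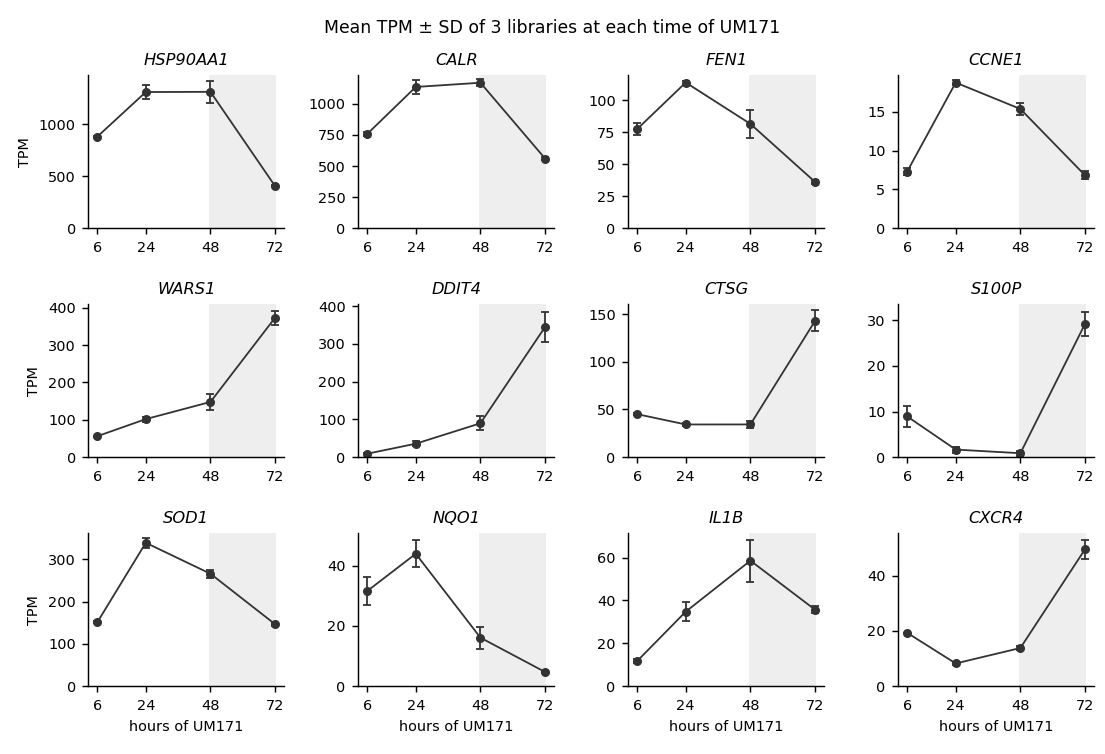
Mean TPM (y axis, from 0) of 12 genes at 6, 24, 48 and 72 h of UM171 (x axis), with error bars of 1 SD over 3 libraries and the 48 h to 72 h step shaded. HSP90AA1, CALR, FEN1, CCNE1, SOD1 and IL1B had their highest mean at 24 h or 48 h, while WARS1 and DDIT4 were higher at each later time and CTSG, S100P and CXCR4 were highest at 72 h.

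The lists also moved differently in the earlier steps. Of all tested genes 35.8% were higher and 36.3% lower at 24 h than at 6 h, and 20.7% were higher and 18.2% lower at 48 h than at 24 h. From 6 h to 24 h, 41 of 42 replication genes and 37 of 38 genes of G2 and mitosis rose by edgeR, with medians of 0.74 and 0.56. From 24 h to 48 h, a step that shares the 48 h libraries with the one described here, 34 of 42 and 33 of 38 fell, with medians of -0.30 and -0.29. Respiratory chain subunits rose in 42 of 44 cases from 6 h to 24 h (median 0.55) and fell in 23 from 24 h to 48 h (median -0.16). Chaperones rose in 22 of 32 cases and then in 17 of 32, with medians of 0.36 and 0.27, before the median of -0.80. Of the 31 ATF4 targets 27 rose from 6 h to 24 h, 18 rose and 2 fell from 24 h to 48 h, and 29 rose from 48 h to 72 h, with medians of 0.78, 0.24 and 0.62.

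Grouping all genes by the 6 h to 24 h step, which shares no library with the 48 h to 72 h step, gave changes of opposite sign. With the stricter limits 599 genes rose (3.8%) and 1040 fell (6.6%) from 6 h to 24 h. Of the 593 risen genes that were tested from 48 h to 72 h, 302 fell (50.9%) and 121 rose (20.4%), with a median log2 fold change of -0.28. Of the 934 fallen genes tested, 599 rose (64.1%) and 37 fell (3.96%), with a median of 0.66, and 120 of the 295 rises past 2-fold came from them. The remaining 13553 genes had a median of -0.02. Across 15080 genes, which are not independent, the log2 fold changes of the 2 steps had a Pearson's r of -0.465 and a Spearman's rho of -0.454, given as a description. Transcript GC content was weakly related to the 48 h to 72 h change (r = 0.146 over 15419 genes), with medians from -0.06 in the lowest group to 0.13 in the highest of 5 equal groups. The part of GC content in these counts beyond the offset given at the end of the text was not tested.

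**Figure D5:**
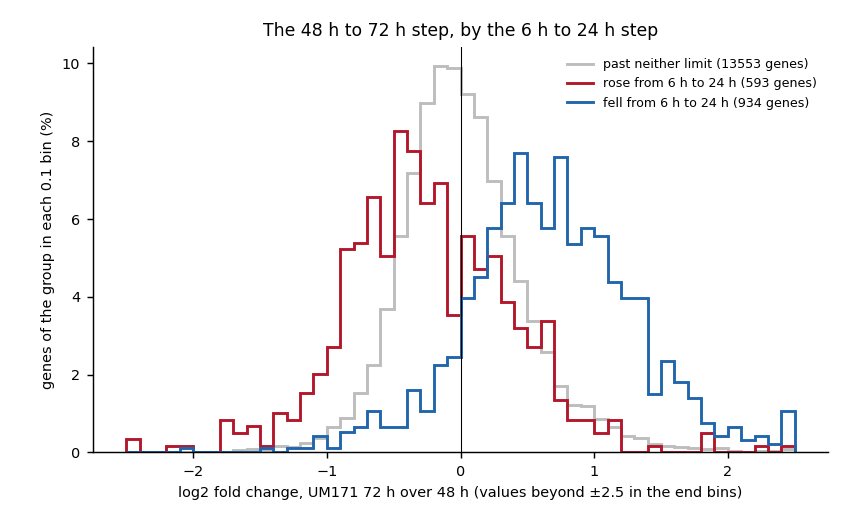
Share of genes (y axis, percent of each group per bin of 0.1) by log2 fold change from 48 h to 72 h of UM171 (x axis), for 593 genes that rose from 6 h to 24 h (red), 934 that fell (blue) and 13553 past neither limit (gray). The red curve is centered below 0 (median -0.28) and the blue curve above 0 (median 0.66).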

How the data were processed

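Poly(A) RNA of OCI-AML5 cells was sequenced by the authors. Per the submitters' processing notes, the tools included CASAVA 1.8.2, Trimmomatic 0.35, STAR 2.5.1b and RSEM 1.2.28 with the GRCh38 build. The authors deposited 1 file per library with the RSEM expected counts and TPM of 58219 entries. TPM were used as deposited. The Y copies of 45 pseudoautosomal entries were summed with the X copies, and the expected counts were rounded. Genes kept by filterByExpr (minimum count 10) were scaled by TMM and tested with the quasi-likelihood test of edgeR 4.0.16 on the 6 libraries, without covariates, with Benjamini-Hochberg adjustment over all 15561 genes. The labels do not say that replicates are separate cultures, so p-values measure the spread between these libraries, which may be technical. The sgEPCR libraries were not used here. On simulated data for this comparison (15372 genes), the fit recovered 47 of 50 genes changed 1.5-fold.

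The 6 libraries were chosen by label, but this comparison and the 41 gene lists were chosen with earlier results of these data known. Named genes were the 12 largest rises and falls past the stricter limits (average log2 CPM above 2, no overlap between times), up to 4 risen and 4 fallen members of each list, and the examples of the study; a few others are list members named for their role. Positions are from GENCODE v44. As alternatives the counts were fitted with DESeq2 1.42.0 and log2(TPM + 1) or log2(TPM + 0.1) with limma 3.58.1; other scalings and filters, fits on 12 or 15 libraries, a replicate block, removal of mitochondrial genes and each library left out were also run. Offsets for GC content were chosen after seeing the data. Reads counted for 1 gene are not independent molecules, so depth covers counting error only.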

Additional observations from a re-analysis of the deposited data

How the results depend on the processing

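No named gene that passed the test changed direction under any alternative run, and over all named genes and alternatives 5377 values kept their side of the threshold while 305 no longer passed it and 7 newly did. The counts of genes at an adjusted p under 0.05 stayed within 1.5 times, except that limma on log2(TPM + 1) and log2(TPM + 0.1) gave 1893 and 1897 lower genes, beside 4330. Of the 2-fold counts (295 higher, 91 lower), limma gave 43 and 13 with a pseudocount of 1 and 38 and 13 with 0.1, no filter on low counts gave 575 and 167, and the GC offset with replicate block gave 131 higher; the causes were not tested. Leaving out 1 library gave 3535 to 4491 higher genes, 3715 to 4738 lower genes, 129 to 359 higher by over 2-fold and 59 to 117 lower by over 2-fold, with fewer samples in each fit. The 2-fold rises were 170 and 185 without 48 h replicate 1 or 2 and 149, 129 and 142 without 72 h replicate 1, 2 or 3, and the 2-fold falls were 59 without 72 h replicate 3. Same-numbered libraries did not deviate together (r = -0.05, -0.01 and -0.07). With 3 libraries at each time, measured from their own mean, this cannot decide whether the numbers pair the samples. The replicate block gave 3864 higher and 3977 lower genes, 215 and 81 by over 2-fold. Medians of lists near 0 changed sign in 33 cases over all alternatives.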

Other observations

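Survival, metabolic and lineage lists not described above held rises and falls, beside 26.9% higher and 27.8% lower over all tested genes. Of 14 tested BCL2 family genes 6 rose and 4 fell by edgeR, but with limma on log2(TPM + 1) 4 rose and 0 fell. BBC3 (PUMA), a BH3-only activator of apoptosis, had 6.39, 5.95 and 3.66 TPM at 48 h and 14.8, 18.8 and 19.2 TPM at 72 h (log2 fold change 1.65, SE 0.13, adjusted p = 8.2e-06), and BMF, of the same class, rose by 1.18 (SE 0.10, adjusted p = 9.7e-06). The antiapoptotic genes MCL1 and BCL2L1 fell by 0.40 and 0.30, whereas BCL2 rose by 0.39. Glycolysis and hypoxia genes rose in 17 of 34 cases and fell in 7 (median 0.21). ALDOC, a brain-type aldolase that hypoxia induces, rose by 1.12 (SE 0.07, adjusted p = 2.8e-06) and the hormone precursor gene ADM by 1.23, while the abundant enzymes PKM and LDHA changed by -0.70 and -0.44. Cholesterol synthesis and lipid genes rose in 20 of 39 cases and fell in 4 (median 0.17), with SREBF1 at 0.60 and FABP5 at -1.10. Lysosome genes rose in 19 of 46 and fell in 9 (median 0.10), and the transferrin receptor TFRC fell by 1.01 (SE 0.07, adjusted p = 4.5e-06) within an iron list of 8 rises and 10 falls of 27 (4 falls with limma).

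Stem and progenitor genes held 10 rises and 8 falls of 29 (6 rises with limma and 5 without 72 h replicate 1), with CD34 (-0.87) and CEBPA (-0.57) lower and CEBPB (0.83) and CEBPD (0.62) higher. Of 17 LSD1-CoREST genes 7 rose and 8 fell, with KBTBD4 itself among the falls (-0.60, SE 0.08, adjusted p = 0.00015). In this list 5 rose and 2 fell with limma on log2(TPM + 1), and 4 rose and 8 fell with the GC offset. Growth factor receptors and signal feedback (10 rises and 8 falls of 35), TNF superfamily genes (9 and 8 of 25) and coagulation genes (6 and 6 of 22) held both rises and falls, but with upper quartile scaling the growth factor list had 16 rises and 6 falls and the coagulation list 10 and 5. KRT15, a keratin, had 17.6, 18.1 and 13.6 TPM at 48 h and 39.9, 46.8 and 41.5 TPM at 72 h (log2 fold change 1.13, SE 0.09, adjusted p = 8.6e-06).

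A few genes, chosen after their values were seen, were near the floor at 48 h or at 72 h but not at both. DMGDH, ALPK2, CHST6, FUT3 and ENSG00000261147 had at most 3 counts in every 48 h library and at least 10 in every 72 h library, and ZCCHC12 had 11 to 18 counts at 48 h and 1 to 3 at 72 h.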
